A study of Bos taurus with 56 samples.

Results

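Of the 482097 regions of accessible chromatin found in any stage of the series, 14648 (3.04%) had a first peak at the 16-cell stage and a peak in the morula, without a peak in oocytes, in earlier embryos or in blastocysts. They made up 21.0% of the 69866 regions with a 16-cell peak. A region was formed by joining all peaks that overlapped by at least 1 bp across the 11 deposited peak lists, and it counted as present in a list when a peak of that list lay in it. The regions described here were chosen by peak presence alone: a region belonged to the set when it was in the 16-cell list and in at least 1 of both morula lists, and in none of the 7 lists of GV oocytes, MII oocytes, 2-cell, 4-cell and 8-cell embryos, blastocysts and blastocysts derived in vivo. Peak width and place along the chromosome did not enter the rule, and a day 14 peak was neither asked for nor barred. The rule does rest on overlap between peaks, which wide peaks meet more easily. Day 14 peaks did take part in joining peaks into regions, and 209 regions belong to the set only through such a join. Of the regions, 8130 had a day 14 peak and 6518 had none. They are called gained and kept regions below, where gained and kept refer to the lists alone.

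The series mapped accessible chromatin in cattle (Bos taurus) by ATAC-seq, in which a transposase cuts and tags DNA that nucleosomes and other proteins leave exposed. The groups used here were 16-cell embryos (5 libraries), morulae (6 libraries), morulae derived in vivo (4 libraries) and day 14 elongating embryos (6 libraries), with absence read from GV oocytes (6), MII oocytes (5), 2-cell (6), 4-cell (6) and 8-cell embryos (5), blastocysts (3) and blastocysts derived in vivo (4). The labels give no breed, sex or treatment, do not say how the groups without an in vivo label were produced, and the series description states that oocytes and embryos were pooled. The authors merged the libraries of each group into 1 list of positions, which holds no read counts or scores. The depth and the spread between libraries are therefore unknown, and no test between groups was possible. Intervals given below are 95% exact Clopper-Pearson intervals that cover counting error only. They treat regions as independent, although neighbouring regions tended to share their day 14 state, so they may be too narrow.

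Open chromatin in the early embryo marks promoters and enhancers that transcription factors can reach. In cattle the embryo's own genome is activated in the main around the 8-cell to 16-cell stage, when transcription replaces the maternal RNA stored in the egg. The morula that follows compacts, and its outer and inner cells then take up the fates of trophectoderm, which forms the placenta, and inner cell mass, which forms the embryo proper. By day 14 the conceptus elongates and consists mostly of trophectoderm. No gene is named for any region, because the gene table at hand is of another genome assembly than the files, and the base sequence of the regions was not analysed here.

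The choice of the regions was set mainly by the morula and 8-cell lists. Of the 69866 regions with a 16-cell peak, 33589 also had a morula peak in at least 1 list. An 8-cell peak took 18421 of these out, a peak in GV, MII, 2-cell or 4-cell lists a further 427, and a blastocyst peak in either list a further 93. The oocyte, 2-cell, 4-cell and blastocyst lists were short, with 730 to 5810 peaks against 59186 in the 8-cell list, and a missing peak in a list is not a measurement of closed chromatin.

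Most gained and kept regions were found in the morula list without the in vivo label, either there alone or with the in vivo list. Both morula lists held 7157 regions (48.9%), the list without the label alone held 6427 (43.9%), and the in vivo list alone held 1064 (7.26%). Among all regions with a 16-cell and a morula peak, 59.4% were in both morula lists, and among all regions with a morula peak 30.4%. Since the rule asks for at least 1 morula list, the share among regions with both a 16-cell and a morula peak is the like background, and the gained and kept regions lay below it. Of the 8221 gained and kept regions in the in vivo list, 87.1% (interval 86.3% to 87.8%) were also in the other morula list, against 60.1% of all regions of the in vivo list. In the other direction, 52.7% (interval 51.8% to 53.5%) of the 13584 in the list without the label were also in the in vivo list, against 38.1% of all regions of the list without the label. All regions of a morula list include those with no 16-cell peak, so neither comparison is with the like background. Regions with 8-cell, 16-cell and morula peaks and none in the oocyte, 2-cell, 4-cell and blastocyst lists recurred more often, 95.4% and 68.0% in the same directions.

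A day 14 peak was less frequent in the gained and kept regions than in all regions with both a 16-cell and a morula peak, and more frequent than in 16-cell regions as a whole. It was present in 55.5% (interval 54.7% to 56.3%), against 64.7% of all regions with a 16-cell and a morula peak, 67.9% (interval 67.2% to 68.7%) of those with 8-cell, 16-cell and morula peaks, 41.8% of all regions with a 16-cell peak and 41.5% of all regions with a morula peak. Of these sets all but the one with 8-cell peaks include the gained and kept regions. Of the 29306 regions with a 16-cell peak, no morula peak and none in the 7 lists named above, only 19.3% had a day 14 peak. Below, regions with a 16-cell and no morula peak, set beside the gained and kept regions, are this set. Without the 209 regions joined through a day 14 peak the share was 54.9%, and with regions formed without the day 14 list it was 55.49% of 14644. Presence in both morula lists went with the higher share. The share was 66.8% (interval 65.7% to 67.9%) for regions in both morula lists, 47.4% (interval 44.3% to 50.4%) for those in the in vivo list alone and 44.3% (interval 43.1% to 45.5%) for those in the list without the label alone. The last pair of intervals overlapped, and neither overlapped the interval of regions in both lists. With peaks of at least 329 bp alone, which kept 29.2% of the day 14 peaks, the share was 40.5% (interval 39.6% to 41.4%) in gained and kept regions, 53.3% in all regions with a 16-cell and a morula peak and 34.1% in all regions with a 16-cell peak. Under that bound 51.6% of the gained and kept regions in both morula lists and 28.3% of those in 1 list had a day 14 peak.

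**Figure D1:**
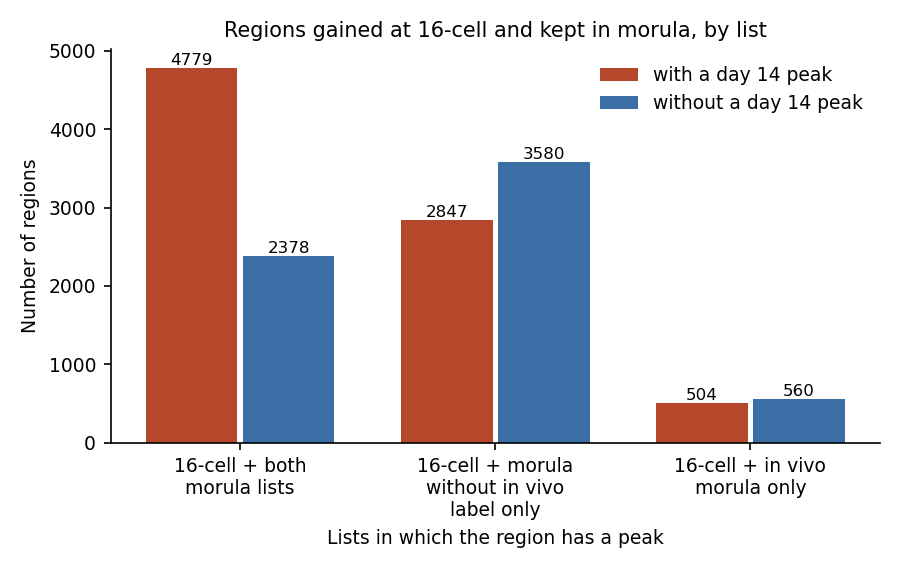
Number of gained and kept regions (y axis) by the lists in which they have a peak (x axis), with a day 14 peak (red bars) and without (blue bars). Regions in both morula lists had a day 14 peak more often than not, 4779 against 2378, whereas regions in the morula list without the in vivo label alone were more often without one, 2847 with against 3580 without.

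In most of these regions the morula peaks were wider than the 16-cell peaks at the same places. Morula peaks, taken from the list without the in vivo label where it had a peak and otherwise from the in vivo list, covered a median of 1.48 times as many bases of a region as the 16-cell peaks did (quartiles 0.974 and 2.33). They covered more bases in 10739 regions (73.3%, interval 72.6% to 74.0%) and at least 2 times as many in 4806 (32.8%). The median covered length was 752 bp in the in vivo list and 770 bp for the other morula peaks, against 470 bp in the 16-cell list. Regions with a 16-cell and no morula peak had a shorter 16-cell median of 323 bp. Peaks differed in the same direction over whole lists, with median widths of 551 bp for in vivo morulae, 525 bp for the other morulae and 409 bp for 16-cell embryos. All regions with a 16-cell peak had a 16-cell median of 422 bp. All regions with a morula peak had medians of 568 bp in the in vivo list and 544 bp in the other. The rule asks for overlap, which wide peaks meet more easily. The part of this and of the lists' own settings in the ratio was not tested. Regions already present at the 8-cell stage had a smaller ratio, 1.29 (quartiles 0.888 and 1.86), with a longer 16-cell median of 806.5 bp.

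Most regions held a single peak in the 16-cell list and in each morula list. A single 16-cell peak was found in 13473 regions (92.0%), and the other 1175 held up to 5. In 11517 regions with 1 peak in the 16-cell list and 1 overlapping peak in the morula list without the label, the morula peak spanned the whole 16-cell peak in 43.1%, the 16-cell peak spanned the morula peak in 10.3%, and the peaks were staggered in 46.5%. Their centres lay a median of 147.5 bp apart (upper quartile 267 bp). Against the in vivo list the 6488 such pairs gave 38.5%, 11.1% and 50.4%, with centres 160.25 bp apart.

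Short overlaps between 16-cell and morula peaks were few, but stricter rules left far fewer regions. In 14439 regions a 16-cell and a morula peak overlapped each other. Of these, the largest shared stretch was at most 10 bp in 91, and at most 100 bp in 787. The latter were 5.37% of all gained and kept regions. Among the 14439, the fewest shared bases, 1, were found at chr6:53780121-53781151 (genome build UMD3.1, as for all positions here), at chr7:45859170-45859979 and at chr10:85218706-85219558. Just outside, 742 regions with a 16-cell peak and no morula peak lay within 100 bp of one, and the regions at chr3:52042627-52042881, at chr10:51753428-51753740 and at chr15:65664190-65664621 touched one with a gap of 0 bp. In the other 209 gained and kept regions the 16-cell and morula peaks did not overlap each other and were joined through a day 14 peak. All 209 therefore counted among those with a day 14 peak. Asking a 16-cell and a morula peak to share 50% of both left 7717 regions, and asking for the in vivo morula list left 8221.

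**Figure D2:**
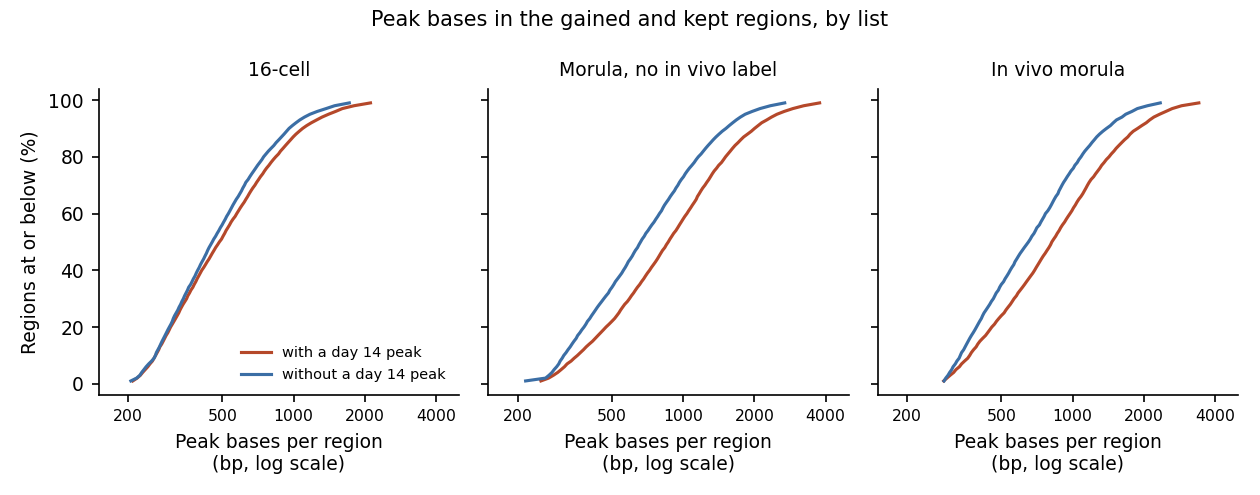
Percent of gained and kept regions (y axis) at or below a number of peak bases per region (x axis, bp, log scale), from the 1st to the 99th percentile, for the 16-cell list (left), the morula list without the in vivo label (middle) and the in vivo morula list (right), with a day 14 peak (red) and without (blue). At the 16-cell stage the curves lie close at the lower end, with medians of 485.5 and 453 bp. They part towards the upper end, with 1091 and 956 bp at the 90th percentile. In the morula lists they lie farther apart, with medians of 865 and 660.5 bp in the middle panel.

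Regions with and without a day 14 peak had similar median 16-cell widths and differed more in morula width. At the 16-cell stage the median covered length was 485.5 bp in regions with a day 14 peak and 453 bp in those without. For morula peaks without the in vivo label the medians were 865 bp with a day 14 peak and 660.5 bp without, and for in vivo morula peaks 816 bp with and 650 bp without. The ratio of morula to 16-cell bases was 1.59 with a day 14 peak (quartiles 1.05 and 2.48) and 1.35 without (quartiles 0.881 and 2.14). The quartile ranges of both overlapped widely, so the width of a single region did not separate the classes. Day 14 peaks can join separate morula peaks: 8.60% of regions in the list without the label held 2 or more of its peaks with a day 14 peak, and 3.37% without. A wider morula peak also has more room for a day 14 peak. The part of either in the width difference was not tested, and these medians were not split by presence in both morula lists. The morula peak spanned the 16-cell peak in 48.6% of pairs with a day 14 peak and in 37.1% without. Regions with a day 14 peak recurred more often between the morula lists: 62.7% (interval 61.6% to 63.8%) of those in the list without the label were also in the in vivo list, against 39.9% (interval 38.7% to 41.2%) of regions without a day 14 peak.

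Since regions were formed by overlap, a day 14 peak in a gained and kept region touches a 16-cell or a morula peak by construction. Of the 8130 regions with a day 14 peak, 7975 (98.1%) had one that overlapped a morula peak, 7499 (92.2%) one that overlapped a 16-cell peak, and 7091 (87.2%) had at least 1 base common to a 16-cell, a morula and a day 14 peak. Where 1 peak of each stage overlapped the other, in 5381 regions, the day 14 and 16-cell centres lay a median of 145 bp apart. Over all 8130 regions, day 14 peaks covered a median of 572 bp of a region (quartiles 306 and 996 bp), against 619 bp in all regions with a 16-cell and a day 14 peak, 582 bp in all with a morula and a day 14 peak, and 903 bp in those with 8-cell, 16-cell, morula and day 14 peaks. They covered more bases than the 16-cell peaks in 54.8% of the regions and more than the morula peaks in 33.6%. In 1721 regions (21.2%) day 14 chromatin showed 2 or more separate peaks, up to 8 in 1 region.

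A wider region has more room for a day 14 peak, and regions with a morula peak are wider, so the 16-cell peak alone was also compared. It overlapped a day 14 peak in 51.2% (interval 50.4% to 52.0%) of gained and kept regions, against 65.4% of those also open at the 8-cell stage, 19.3% (interval 18.8% to 19.7%) of those with no morula peak, and 39.98% of all regions with a 16-cell peak. The order was the same at equal 16-cell width in the 4 classes under 2000 bp. With under 300 bp of 16-cell peak the shares were 47.0% in gained and kept regions, 56.3% in regions also open at the 8-cell stage and 17.0% in regions with no morula peak, and with 1000 to under 2000 bp they were 62.0%, 69.1% and 31.9%. The intervals of the gained and kept regions and the regions with no morula peak did not overlap in any width class under 2000 bp. With 2000 bp or more, the share was 76.6% (interval 68.3% to 83.6%) of 128 gained and kept regions and 75.8% (interval 73.1% to 78.3%) of 1086 regions also open at the 8-cell stage, within overlapping intervals. The order was thus turned in that class, where only 5 regions had no morula peak. Among gained and kept regions, the 16-cell peak overlapped a day 14 peak in 61.4% of those in both morula lists, 43.8% of those in the in vivo list alone and 41.0% of those in the list without the label alone.

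Among regions in both morula lists, those with wider 16-cell peaks had a day 14 peak more often: 64.7% of regions with under 300 bp of 16-cell peak and 72.4% of those with 1000 to under 2000 bp had a day 14 peak, and 82.3% of the 113 with 2000 bp or more. Among regions in 1 morula list, the shares in the 4 classes under 2000 bp lay between 43.6% and 47.5%, highest under 300 bp, and 53.3% of the 15 with 2000 bp or more had one. Regions in both morula lists that had no 16-cell peak, nor any in the 7 lists named above, had a day 14 peak in 56.0% (interval 55.0% to 56.9%) of 10509 cases, against 66.8% in the gained and kept regions of both lists. At equal morula width the gained and kept regions were higher, 64.0% against 56.5% with 500 to under 1000 bp and 67.7% against 59.2% with 1000 to under 2000 bp of morula peak.

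**Figure D3:**
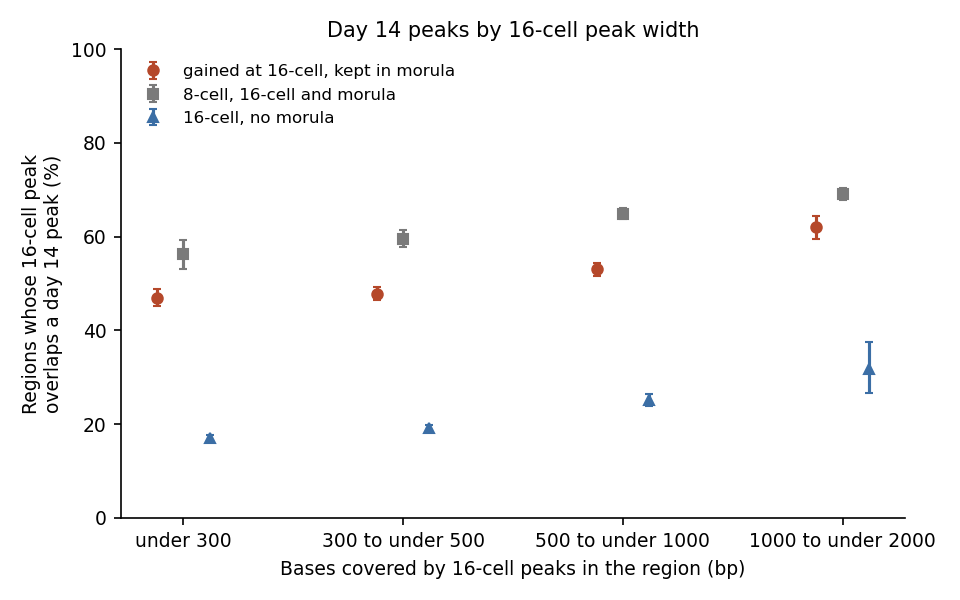
Percent of regions whose 16-cell peak overlaps a day 14 peak (y axis) by the bases of 16-cell peak in the region (x axis, bp), for gained and kept regions (red circles), regions also open at the 8-cell stage (grey squares) and regions with no morula peak (blue triangles), with 95% exact intervals as bars. Gained and kept regions lie between the others in every class shown, at 47.0% to 62.0%; in the class of 2000 bp or more, left out because it holds 5 regions with no morula peak, they do not, at 76.6% against 75.8% in regions also open at the 8-cell stage.

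The regions were spread over the 29 autosomes and the X chromosome at 5.51 per Mb, each chromosome being measured up to the end of its last peak. The densest were chromosomes 7 (7.19 per Mb), 2 (6.81 per Mb) and 3 (6.77 per Mb), and X was the sparsest (3.33 per Mb). All regions with a 16-cell peak were also dense on chromosomes 7 and 3 and sparse on X. Relative to the genome mean, gained and kept regions stood at 1.31, 1.23 and 0.604 times on chromosomes 7, 3 and X, against 1.20, 1.22 and 0.514 times for all regions with a 16-cell peak. Regions with and without a day 14 peak followed different chromosomes. On chromosomes 18, 19 and 25, which are rich in genes, the density of regions with a day 14 peak was 1.33 times their mean over the genome and that of regions without one 0.463 times. On X the densities were 0.343 times with a day 14 peak and 0.930 times without. X thus held 1.92% (interval 1.63% to 2.24%) of the regions with a day 14 peak and 5.20% (interval 4.67% to 5.77%) of those without. Over all gained and kept regions X held 3.38%, and 2.13% of those in the in vivo morula list. The X share of other regions in the in vivo list was not measured.

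Put as shares, a day 14 peak was found in 78.2% (interval 75.4% to 80.9%) of the 899 gained and kept regions on chromosomes 18, 19 and 25, in 54.9% (interval 54.0% to 55.7%) of the 13254 on the other autosomes and in 31.5% (interval 27.4% to 35.8%) of the 495 on X. Among single autosomes the share ran between 44.3% on chromosome 27 and 81.9% on chromosome 25. The same order of chromosomes held for all regions with a 16-cell peak, at 63.8%, 40.3% and 33.2%, and for all regions with a 16-cell and a morula peak, at 86.2%, 63.4% and 49.4%. It is therefore not particular to the gained and kept regions. The gained and kept regions were above all 16-cell regions on 29 of 29 autosomes, whereas on X their interval included the 33.2% of all 16-cell regions. All 16-cell regions include those with no morula peak. Against all regions with a 16-cell and a morula peak, the gained and kept regions were below in each of these chromosome groups. With peaks of at least 329 bp alone, a day 14 peak was found in 18.2% (interval 14.2% to 22.6%) of 347 gained and kept regions on X, against 27.5% (interval 25.1% to 30.03%) of all 16-cell regions there. Split by morula list, regions on X had a day 14 peak in 47.2% (interval 39.4% to 55.2%) of 163 cases in both lists and in 23.8% (interval 19.3% to 28.7%) of 332 cases in 1 list, against 66.1% and 43.7% on the other autosomes. The in vivo morula list took part in 35.4% (interval 31.1% to 39.7%) of the X regions and in 56.9% of those on the other autosomes. This was not measured in other sets of regions, so it cannot be called particular to the gained and kept regions.

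**Figure D4:**
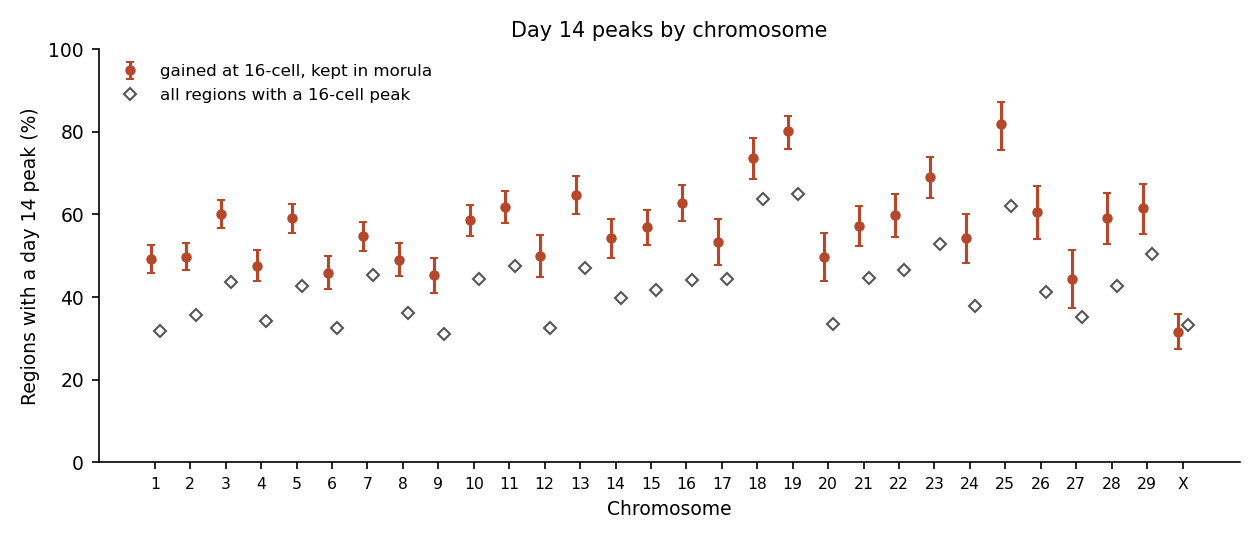
Percent of regions with a day 14 peak (y axis) on each chromosome (x axis), for gained and kept regions (red points, bars are 95% exact intervals) and for all regions with a 16-cell peak, with or without a morula peak (open diamonds). Chromosomes 25, 19 and 18 are highest among the gained and kept regions, at 81.9%, 80.1% and 73.8%, and X is lowest at 31.5%, the only chromosome where the point is not above the diamond.

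The share with a day 14 peak also differed along the chromosome, in the gained and kept regions as in all 16-cell regions. In the last 5 Mb of a chromosome, 69.9% (interval 66.6% to 72.9%) of 846 gained and kept regions had a day 14 peak, against 58.9% (interval 54.6% to 63.0%) of 559 in the first 5 Mb and 54.4% (interval 53.6% to 55.3%) of those elsewhere. For all regions with a 16-cell peak the shares were 51.9%, 45.4% and 41.0%, and for all with a 16-cell and a morula peak 76.4%, 67.5% and 63.9%, in the same order. The gained and kept regions of both ends were in the in vivo morula list less often than the 57.2% of those elsewhere. The share was 44.6% (interval 41.2% to 48.0%) in the last 5 Mb and 48.1% (interval 43.9% to 52.4%) in the first 5 Mb, within overlapping intervals. Shares in the in vivo list were not measured at the ends for other sets of regions, so the difference cannot be called particular to this set.

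Few gained and kept regions lay beside an 8-cell peak. The median gap to the nearest 8-cell peak was 14326.5 bp, and 560 regions (3.82%, interval 3.52% to 4.15%) lay within 500 bp of one and 4170 (28.5%, interval 27.7% to 29.2%) within 5 kb. The share within 500 bp was higher, 5.99% (interval 5.72% to 6.26%), in regions with a 16-cell and no morula peak, and lower, 2.46%, in regions first seen in both morula lists. Regions with and without a day 14 peak lay at about the same distance, 28.2% (interval 27.2% to 29.2%) with and 28.8% (interval 27.7% to 29.9%) without being within 5 kb. The share with a day 14 peak was 53.3% within 1 kb of an 8-cell peak, 58.5% at 5 to 20 kb and 46.0% (interval 42.8% to 49.2%) beyond 100 kb.

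Gaps to the lists of few peaks were far longer. The median gap to the nearest GV oocyte peak was 186999 bp for regions with a day 14 peak and 401175 bp for regions without. To MII oocyte peaks the medians were 1450220 bp with and 1609900 bp without. For blastocyst peaks the direction was the opposite, with median gaps of 1064410 bp with a day 14 peak and 741106 bp without. Gaps to a list of few peaks depend on the chromosomes that hold them, and were not compared within chromosomes.

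**Figure D5:**
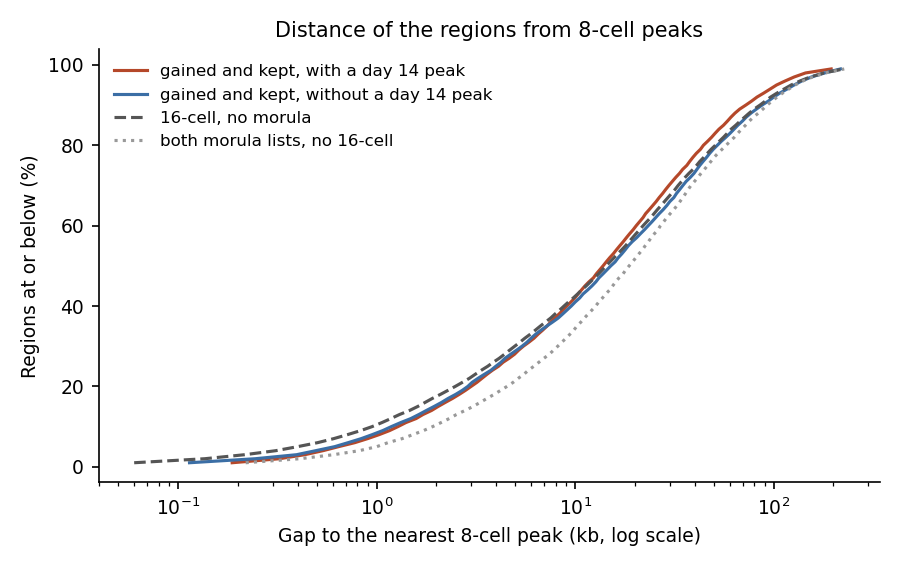
Percent of regions (y axis) at or below a gap to the nearest 8-cell peak (x axis, kb, log scale), from the 1st to the 99th percentile, for gained and kept regions with (red) and without (blue) a day 14 peak, regions with a 16-cell and no morula peak (dashed) and regions in both morula lists with no 16-cell peak (dotted). Both gained and kept curves run close to each other, with 28.2% and 28.8% within 5 kb, and regions first seen in both morula lists lie farther away, with 21.5% within 5 kb.

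The nearest other gained and kept region lay a median of 29745.5 bp away. Of the regions, 29.8% (interval 29.1% to 30.6%) had another within 10 kb, or 18.3% under the rule of 50% of both peaks. These gaps were not measured in other sets of regions, so they do not show whether the set is clustered. Neighbours tended to share their day 14 state. Of the 2476 consecutive pairs within 10 kb, 64.5% (interval 62.6% to 66.4%) were alike, against 62.2% (interval 61.0% to 63.5%) at 10 to 100 kb and 57.7% (interval 56.5% to 58.9%) beyond 100 kb. Within 10 kb, the next region had a day 14 peak in 70.2% of cases after a region with one and in 43.5% after a region without. Beyond 100 kb these shares were 58.4% and 43.0%, and 55.5% of all gained and kept regions had a day 14 peak. Neighbours lie on the same chromosome, and the part of the chromosome shares above in this likeness was not tested. The likeness was also not measured in other sets of regions, so it cannot be called particular to this one.

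In windows of 1 Mb, 2536 of 2678 windows (94.7%) held at least 1 gained and kept region, with a median of 5. The fullest window lay between 75 and 76 Mb of chromosome 5, with 28 regions, 17 of them with a day 14 peak. Behind it came 27 regions between 16 and 17 Mb of chromosome 6 (15 with a day 14 peak), 26 between 57 and 58 Mb of chromosome 5 (18 with), 25 between 93 and 94 Mb of chromosome 6 (16 with) and 25 between 63 and 64 Mb of chromosome 7 (18 with). In the window on chromosome 6 between 93 and 94 Mb the gained and kept regions were 25 of 50 regions with a 16-cell peak, and in that on chromosome 5 between 57 and 58 Mb they were 26 of 114. The fullest 10% of windows held 26.4% of the regions.

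Widths of whole regions ran between 218 bp and 8258 bp, with a median of 1206 bp for regions with a day 14 peak and 862 bp for those without. The widest lay at chr22:43666940-43675197. There a single 16-cell peak of 526 bp stood in a region in which in vivo morula peaks covered 7175 bp, morula peaks without the label 5492 bp and 7 day 14 peaks 3902 bp, and the nearest 8-cell peak was 1197 bp away. The second, at chr3:102940371-102948246, held 211 bp of 16-cell peak and 7682 bp of morula peaks without the label, 2505 bp of in vivo morula peaks and 3023 bp of day 14 peaks. In both, the 16-cell peak covered less than the peaks of any other stage present.

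In the other wide regions with a day 14 peak, day 14 peaks covered most of the region. At chr14:63810105-63816966, day 14 peaks covered 5485 bp and 16-cell peaks 866 bp. At chr25:33985825-33992679, a single day 14 peak covered 6834 bp of the 6855 bp, with 3 16-cell peaks of 1727 bp in all. At chr13:43470503-43477214, day 14 peaks covered 6565 bp, 16-cell peaks 757 bp, in vivo morula peaks 873 bp and morula peaks without the label 321 bp.

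The 5 widest regions without a day 14 peak were all in both morula lists, and their nearest day 14 peak lay 6976 to 25732 bp away. At chr6:64766010-64772134, 1 morula peak without the label spanned all 6125 bp, in vivo morula peaks covered 3128 bp and 16-cell peaks 457 bp, and the nearest 8-cell peak was 87489 bp away. At chr7:79343655-79349119, the 16-cell peak was the widest of the stages, 4118 bp, with 3488 bp of in vivo morula peaks and 3440 bp of the other morula peaks, and the nearest 8-cell peak was 274752 bp away. At chr10:60025466-60030523, an in vivo morula peak spanned all 5058 bp and 16-cell peaks covered 939 bp. The regions at chr14:44584893-44589467 and at chr3:43498464-43503032 held 2028 and 1805 bp of 16-cell peaks, with 4458 and 4569 bp of morula peaks without the label.

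The widest region on X, at chrX:100163732-100167848, was absent from the in vivo morula and day 14 lists. A single morula peak without the label spanned its 4117 bp and a 16-cell peak covered 712 bp, with the nearest 8-cell peak 789 bp and the nearest day 14 peak 963 bp away.

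Some regions without a day 14 peak lay close to one. Of the 6518, 611 (9.37%, interval 8.68% to 10.1%) lay within 500 bp of a day 14 peak, against 14.4% (interval 14.0% to 14.9%) of regions with a 16-cell and no morula peak that lacked a day 14 peak, and 7.12% (interval 6.43% to 7.86%) of those also open at the 8-cell stage that lacked one. The median gap to the nearest day 14 peak was 4303.5 bp, and 94.97% had one within 50 kb, in a day 14 list of 372509 peaks.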

How the data were processed

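Each of the 11 groups had 1 deposited list of peak positions, merged by the authors from the libraries of a stage per the series description, with chromosome, start and end in base pairs and no score or count. The submitters' processing notes name the aligner Bowtie2 2.3, the peak caller MACS2, the toolkits bedtools and HOMER, and build UMD3.1. Not given in the sources used here are the calling threshold, how lists were merged and whether reads were shifted to the transposase cut, each of which can change the peaks a list holds. Starts were read as counted from 0 and are printed counted from 1. Regions were joined across lists at 1 bp of overlap, and bedtools 2.31.1 gave the same 482097 regions and 14648 members. The interval functions were tested on simulated lists. The members, width classes and comparison sets were chosen with earlier results of these data known. Named regions were the widest of each kind, those nearest the bounds of the rule, and the 5 windows of 1 Mb with most members. With 1 list a group, no p-value is given. Alternatives changed joining, peak width, overlap, the lists asked for and the counting of starts. Tables were made with pandas 2.3.3 and numpy 2.4.6 under Python 3.11.15, intervals with scipy 1.17.1, and plots with matplotlib 3.10.9.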

Additional observations from a re-analysis of the deposited data

How the results depend on the processing

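Of 70 values, 7 results under 10 alternatives, 45 stayed and 25 moved. Staying meant lying within 1.5 times the reported count or within the interval of the reported share or median. A reversal was defined only for the median ratio of covered bases, which ran between 1.22 and 1.51 under the alternatives and was not reversed. Counts and shares could only stay or move. The day 14 share, 55.5% as reported, was 40.5% with peaks of at least 329 bp alone, no longer a majority, and was counted as moved. Forming the regions without the day 14 list, asking for no absence from blastocysts, asking for direct overlap and, chosen after seeing the data, counting starts from 1 moved none of the 7.

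Joining peaks less than 500 bp apart gave a day 14 share of 58.7%, 23.4% within 5 kb of an 8-cell peak and 26.4% with another member within 10 kb. Widening peaks by 250 bp gave 58.7%, 25.2% and 27.1%, and a ratio of morula to 16-cell bases of 1.22. With peaks of at least 329 bp alone, the day 14 share was 40.5%, with 52.5% in both morula lists, a ratio of 1.38, 24.5% near an 8-cell peak and 26.0% near another member. That bound kept 29.2% of the day 14 peaks, and under it 34.1% of all 16-cell regions and 9.24% of those with no morula peak had a day 14 peak. Asking for 50% of both peaks left 7717 members, with 54.4% in both morula lists, a ratio of 1.24 and 18.3% near another member. Asking for the morula list without the in vivo label gave 52.7% in both lists, a ratio of 1.51 and 28.3% near another member. Asking for the in vivo list gave 8221 members, with a day 14 share of 64.3%, 87.1% in both lists, a ratio of 1.41, 2.13% on X and 22.9% near another member.

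No paired analysis was possible because each group has 1 merged list and no value comes from a test. Leaving out a replicate was likewise not run. Depth is unknown, so the detection limit of each list is unknown too.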
